A study of Mus musculus with 3 samples.

Results

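The genes described here are 10 members of the BCL2 family of apoptosis regulators in mouse kidney macrophages: Bcl2, Bcl2l1, Bcl2l11, Bcl2a1b, Bcl2a1d, Mcl1, Bax, Bak1, Bid and Bnip3l. They were chosen by gene symbol as rows of the deposited expression table, and all 10 named symbols were among the 14811 genes listed. The samples were macrophages sorted by flow cytometry from the kidneys of 3 C57BL/6J mice, taken 1 hour after an intravenous injection of phosphate-buffered saline (PBS), with 1 RNA-seq library for each mouse. Every animal received PBS, so there was a single group and no contrast between conditions; the labels give neither the age of the mice nor the gate used in the sort. The 3 libraries are from separate mice, and every SD below is the spread between those mice (n = 3). With 1 amplified library for each mouse, differences between animals cannot be told apart from differences between library preparations.

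BCL2 family proteins decide whether the outer mitochondrial membrane is opened during apoptosis. Anti-apoptotic members (Bcl2, Bcl2l1, Mcl1 and the Bcl2a1 proteins) bind and restrain the effectors Bax and Bak1, which otherwise form pores that release cytochrome c, while BH3-only members such as Bid and Bcl2l11 relay death signals by binding either class. Bnip3l is a related protein of the outer mitochondrial membrane that recruits the autophagy machinery to mitochondria. In myeloid cells Mcl1 is known for supporting survival, and the Bcl2a1 genes are known as targets of NF-kB signalling in leukocytes.

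A level is given as the normalised read count, which is the number of reads assigned to a gene divided by the library's size factor. The libraries held 50646558 to 56718534 reads over the listed genes, so that 1 read was worth 0.555 to 0.806 normalised counts. Different genes were ranked and tested after division by exon length in kilobases (per kb); where copies of nearly equal length are set side by side in reads, that is said. The sorted cells carried macrophage transcripts: all 10 macrophage markers stood at 1000 or more in all 3 mice, led by the complement gene C1qb at 323071, 256120 and 342089 in mice 1, 2 and 3. The neutrophil marker S100a9, the T cell markers Cd3e and Bcl11b, the dendritic cell marker Ccr7, the mast cell marker Ms4a2 and the globin Hba-a1 were at 0 reads in all 3 libraries. Transcripts of kidney tubule cells were present, with a summed level over 6 listed markers of 4237, 18655 and 2044 in mice 1, 2 and 3. The highest of them, the phosphate transporter Slc34a1, stood at 2399, 8606 and 915. Among other marker lists, the highest gene was Clec9a for dendritic cells (3421, 1330 and 1462), Cd4 for T cells (1.61, 2.77 and 113), Kdr for endothelium (453, 7.77 and 1345), Col1a1 for fibroblasts (33.9, 2.77 and 21.1) and Hbb-bs for red blood cells (5.65, 0 and 212). Of 5 monocyte markers 3 were listed: Ccr2 was high in every mouse (29145, 8939 and 12215), while Ly6c2 (1069, 2.77 and 0.70) and Plac8 (465, 0 and 0) were at or near 0 in mice 2 and 3. In RNA from sorted pools, fewer cells of a type and less RNA per cell cannot be told apart.

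The anti-apoptotic members made up the largest part of the family's RNA in every mouse. Their summed level was 19892, 18805 and 25490 normalised reads per kb in mice 1, 2 and 3, against 386, 266 and 1154 for the effectors Bax and Bak1 together. The anti-apoptotic sum was therefore 51.5, 70.6 and 22.1 times the effector sum. When the duplicated Bcl2a1b and Bcl2a1d were left aside, the sum of Mcl1, Bcl2 and Bcl2l1 was 6.94, 10.2 and 4.26 times the effector sum. Most of that smaller sum was Mcl1, at 2527, 2383 and 3906 per kb. Bcl2 and Bcl2l1 were each below Bax in 3 of 3 mice. Within the anti-apoptotic sum, Bcl2a1b contributed 66.6% ± 1.71, Bcl2a1d 17.6% ± 1.41 and Mcl1 13.6% ± 1.52, while Bcl2l1 gave 1.19% ± 1.22 and Bcl2 1.00% ± 0.45. The sum leaves out a further Bcl2a1 copy outside the members, Bcl2a1a, at 6513 ± 1589 per kb. The shares of Bcl2a1b and Bcl2a1d also depend on how reads that match several copies were assigned, which these SDs do not cover. The 10 members together took 0.0617%, 0.0905% and 0.112% of all reads.

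**Figure D1:**
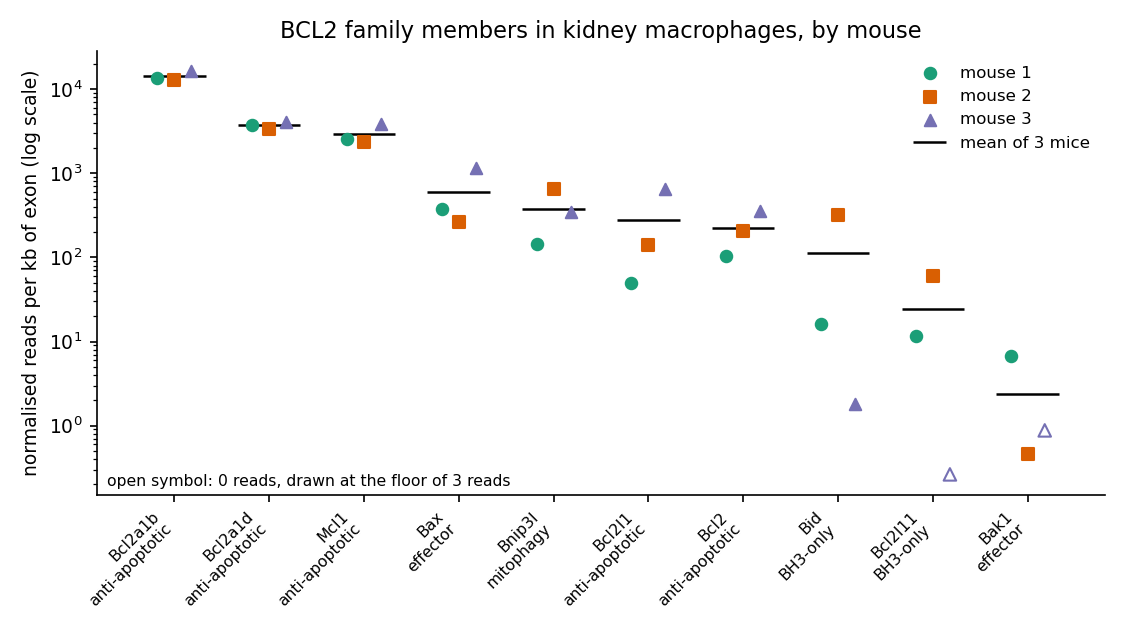
Normalised reads per kb of exon (log axis) for the 10 members, ordered by mean; symbols are the 3 mice, black lines are means, and open symbols mark genes with 0 reads drawn at the floor of 3 reads. Bcl2a1b, Bcl2a1d and Mcl1 lie above the other 7 members in every mouse, and Bid and Bcl2l11 are spread the widest.

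Levels fell into a broad range. A level of 10 or more in every mouse was reached by 7 of the 10 members, against 44.4% of all listed genes, and a level of 1000 or more in every mouse by 3 members, against 14.7% of genes. The 3 were Bcl2a1b, Bcl2a1d and Mcl1. By mean level per kb the order was Bcl2a1b, Bcl2a1d, Mcl1, Bax, Bnip3l, Bcl2l1, Bcl2, Bid, Bcl2l11 and Bak1, running from a place above 99.3% of genes with an exon length down to one above 18.1%. Among neighbours in this order, Bcl2a1b and Bcl2a1d, and Mcl1 and Bax, had ranges that did not overlap between mice. The ranges of Bcl2a1d and Mcl1, and of each neighbouring pair from Bax downwards, overlapped, so their order was within the spread between mice.

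Bcl2a1b and Bcl2a1d encode mouse copies of the anti-apoptotic protein A1 and lie in a cluster of near-identical genes on chromosome 9. In GRCm38, Bcl2a1b occupies chr9:89199209-89207827 on the plus strand and Bcl2a1d chr9:88723285-88731914 on the minus strand. The coding sequences of Bcl2a1b, Bcl2a1d and of another copy in the table, Bcl2a1a, differ at 12 of 516 positions, so that many reads cannot tell them apart. The first 100 coding bases of each copy are shown because 7 of those differences fall here; capitals mark the positions at which the 3 copies are not all alike (5′ to 3′ on the coding strand, GENCODE annotation of GRCm38, chr9:89199360-89199459, chr9:88731620-88731719 and chr9:88957051-88957150 in turn).
Bcl2a1b: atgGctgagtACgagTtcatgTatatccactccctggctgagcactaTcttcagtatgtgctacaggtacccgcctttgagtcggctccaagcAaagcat
Bcl2a1d: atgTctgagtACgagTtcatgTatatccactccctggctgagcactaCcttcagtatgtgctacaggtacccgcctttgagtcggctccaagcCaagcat
Bcl2a1a: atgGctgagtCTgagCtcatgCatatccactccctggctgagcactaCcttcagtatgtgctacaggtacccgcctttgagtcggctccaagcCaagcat
Over the whole coding sequence, Bcl2a1b and Bcl2a1d were 98.8% identical with 6 mismatches, Bcl2a1b and Bcl2a1a 97.9% with 11, and Bcl2a1d and Bcl2a1a 98.6% with 7.

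Bcl2a1b stood at 11007.5, 10373 and 13465 normalised reads in mice 1, 2 and 3, the highest member per kb in every mouse at 14217 ± 1999. Its values lay close together, with mouse 3 only 1.30 times mouse 2. Bcl2a1d stood at 3226, 2920 and 3530, or 3737 ± 353 per kb, and the highest mouse was 1.21 times the lowest. Per kb, Bcl2a1b exceeded Bcl2a1d in 3 of 3 mice by a log2 ratio of 1.92 ± 0.08 (SD), and the numbers of reads, not divided by length, stood in ratios of 3.41, 3.55 and 3.81. This split between the copies depends on how reads that match several of them were assigned, which is not given in the sources used here. Of all 50-base windows in the transcript, 79.2% in Bcl2a1b and 79.5% in Bcl2a1d also occurred in transcripts of other genes. The gene model Gm29094 also overlaps Bcl2a1b exons on the same strand.

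The copies were also summed, which was decided after their values were seen. Bcl2a1a, which was no member but belonged to the wider family list, stood at 6466, 3913 and 5624, with 69.0% of its windows shared. Summed over Bcl2a1b, Bcl2a1d and Bcl2a1a, in normalised reads not divided by length, the level was 20700, 17206 and 22619 (20175 ± 2745). Bcl2a1b took 57.7% ± 3.90 of that sum, Bcl2a1a 26.3% ± 4.42 and Bcl2a1d 16.1% ± 0.80. The fourth copy, Bcl2a1c, stood at 23.4, 35.0 and 20.4 normalised reads, or 59.2 ± 17.3 per kb, against 6513 ± 1589 per kb for Bcl2a1a. Bcl2a1 genes are also known to be active in neutrophils; of 8 neutrophil markers 2 were listed, S100a9 at 0 in every library and the receptor Csf3r at 19.4, 3.33 and 0.

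**Figure D2:**
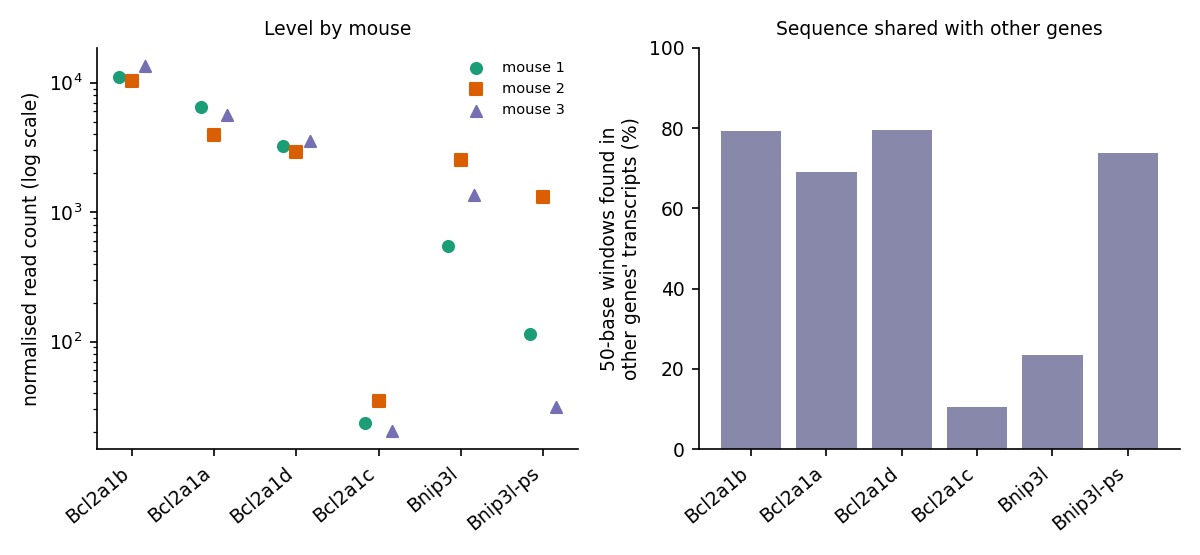
Left, normalised read count (log axis) of the Bcl2a1 copies, Bnip3l and the pseudogene Bnip3l-ps in each of 3 mice; right, the share of each gene's 50-base transcript windows found in other genes' transcripts. Bcl2a1b, Bcl2a1a and Bcl2a1d share 69.0% to 79.5% of their windows, Bnip3l shares 23.4% and Bnip3l-ps 73.9%.

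Mcl1 (chr3:95658788-95663176, plus strand), which encodes a short-lived anti-apoptotic protein, stood at 8638, 8144 and 13352 normalised reads in mice 1, 2 and 3. Mice 1 and 2 were nearly alike and mouse 3 was 1.64 times the lowest. Per kb its level of 2939 ± 841 exceeded that of 96.2% of genes, and none of its transcript windows occurred in another gene. Bcl2a1d lay above Mcl1 per kb in 3 of 3 mice, but only by a log2 ratio of 0.38 ± 0.27 (SD), with overlapping ranges.

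Bcl2 (chr1:106538178-106714274, minus strand), the founding member of the family, stood at 945, 1862 and 3286. The levels in mice 1, 2 and 3 were well apart, with 3.48 times between the lowest and the highest. Its level per kb was 222 ± 129. Exons of D630008O14Rik on the opposite strand overlap Bcl2, and no strand setting is given in the sources used here. Of 5 B cell markers, 1 was listed: Cd79b, at 227, 3940 and 6359, had its lowest and highest values in the same mice as Bcl2. Bcl2l1, at 231, 640 and 2994, had them in the same mice too, so the match was not particular to Bcl2. The part of B cells in the level of Bcl2 was not tested.

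Bcl2l1 (chr2:152780668-152831728, minus strand), which encodes BCL-XL, stood at 231, 640 and 2994, or 281 ± 325 per kb. Mouse 3 was 13.0 times mouse 1, the widest range among the anti-apoptotic members. Bcl2l1 was below Bcl2 per kb in mice 1 and 2 and above it in mouse 3, with a mean log2 ratio of -0.24 ± 0.98 (SD). Mcl1 was above Bcl2l1 in every mouse, with log2 ratios of 5.64, 4.09 and 2.58 in mice 1, 2 and 3.

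The effectors were unequal. Bax (chr7:45461697-45466898, minus strand) stood at 598, 419 and 1818, with mouse 3 above the other mice by more than the gap between them, and at 600 ± 483 per kb. Bak1 (chr17:27019810-27029009, minus strand) had 20, 2 and 0 reads, or levels of 16.1, 1.11 and 0, against a floor of 3 reads worth 2.42, 1.66 and 2.11. Only mouse 1 was above that floor. For the 0 of mouse 3, the 95% interval of counting error alone reached a level of 2.60. Bax exceeded Bak1 per kb by 56.7-fold in mouse 1. With Bak1 set to the floor in mouse 3, Bax was 1313-fold higher there. That fold is not a lower bound, because the interval reached above the floor. Exons of Gm45808 overlap Bax on the same strand, where 13.8% of the Bax windows were shared, and Ggnbp1 overlaps Bak1 on the opposite strand, with 18.2% shared.

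The BH3-only members varied the most. Bid (chr6:120891930-120916853, minus strand), which links death receptors to mitochondria once it is cut by caspase-8, had 71, 2033 and 9 reads in mice 1, 2 and 3. Those reads gave levels of 57.3, 1128 and 6.34, so mouse 2 was 178 times mouse 3. Exons of Bcl2l13, itself at 3.23, 0 and 0, overlap Bid on the opposite strand. Bcl2l11 (chr2:128126038-128162547, plus strand), which encodes the death activator BIM, had 115, 877 and 0 reads, or levels of 92.7, 487 and 0. The 0 of mouse 3 lay under the floor of 3 reads, worth 2.11, and the 95% interval of counting error alone reached 2.60. Both genes were highest in mouse 2 and lowest in mouse 3, and their ranges per kb overlapped. Bcl2l11 was below Bid per kb by log2 ratios of -0.49 in mouse 1 and -2.39 in mouse 2, and Bid was at least 6.79-fold higher in mouse 3, taken against the floor of 3 reads. The effector sum was 14.0 times the summed level of Bid and Bcl2l11 in mouse 1 and 0.704 times in mouse 2. In mouse 3 it was 563 times that level with Bcl2l11 set to the floor there. Folds taken at the floor leave out counting error and are not lower bounds. Mouse 2 alone thus had more RNA per kb from Bid and Bcl2l11 than from the effectors. Other BH3-only genes, outside the members, were not in that sum. Among them, Bad stood at 1.26, 138 and 617 per kb in mice 1, 2 and 3, and Bik at 3.55, 678 and 540. Mouse 2 was also the library in which the summed kidney tubule markers were highest (18655, against 4237 and 2044), and their part in the levels of Bid and Bcl2l11 was not tested.

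Bnip3l (chr14:66985239-67008877, minus strand), which encodes the mitophagy receptor also called NIX, stood at 551, 2509 and 1352. Mouse 2 was 4.55 times mouse 1, and the level per kb was 381 ± 255. The pseudogene Bnip3l-ps, added after the values were seen, stood at 114, 1313 and 31.0, also highest in mouse 2. Its transcript is shorter, and per kb it stood at 100, 1159 and 27.4 in mice 1, 2 and 3. Bnip3l stood at 143, 650 and 350 per kb, so the pseudogene was above it in mouse 2 and below it in mice 1 and 3. Bnip3l-ps shares 73.9% of its windows with Bnip3l, and 23.4% of the Bnip3l windows are shared in turn, so some reads can be assigned to either. The part of the tubule markers, highest in the same mouse, was not tested for Bnip3l either.

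The members were next set against Mcl1 within each library, a ratio that cancels each library's size factor except in the pseudocount of 1. Of 8 members tested, 6 were below Mcl1 per kb and 0 above by limma's moderated test with Benjamini-Hochberg adjustment over 11602 genes. Among all genes tested, 71.2% were below and 0.784% above Mcl1, so the count of 6 is near the background. Bak1 was not tested, because its mean of 5.75 was under the minimum of 10. The log2 ratio to Mcl1 was -2.55 ± 0.81 (SE, adjusted p = 0.0491) for Bax. Bnip3l stood at -3.17 ± 0.89 (adjusted p = 0.0381), Bcl2 at -3.87 ± 0.80 (adjusted p = 0.0232) and Bcl2l1 at -4.11 ± 0.98 (adjusted p = 0.0283). The BH3-only members were the farthest below, Bid at -7.02 ± 1.80 (adjusted p = 0.0318) and Bcl2l11 at -9.33 ± 2.19 (adjusted p = 0.0273). Since Bcl2l11 had 0 reads in mouse 3, its fitted ratio rests on the pseudocount. Within single libraries Mcl1 exceeded Bcl2l11 per kb by 219-fold in mouse 1 and 39.3-fold in mouse 2. In mouse 3 it was 14833-fold higher with Bcl2l11 set to the floor of 3 reads, a fold that leaves out counting error. Each of these 6 was below Mcl1 in 3 of 3 mice.

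Bcl2a1b was above Mcl1 in 3 of 3 mice at 2.30 ± 0.76 (SE), with an adjusted p of 0.0534 that missed the threshold by limma. Its adjusted p ran from 0.00205 to 0.782 over the alternative settings. Bcl2a1d stood at 0.38 ± 0.76 (SE, adjusted p = 0.663 by limma). Those 6 calls below Mcl1 rest on all 3 mice: with any 1 mouse left out, 0 of 8 members passed, and adjusted p ranged up to 0.211 for Bax and to 0.0977 for Bcl2l11. A fit with 1 mouse fewer has less power, so the lost calls alone do not show that the ratios changed. The log2 ratios themselves stayed between -4.08 and -3.50 for Bcl2 and between -2.95 and -2.25 for Bax, whereas Bid ran from -9.08 (without mouse 2) to -5.09 (without mouse 3) and Bcl2l11 from -11.35 to -6.53 (the same mice). All ratios share the same 3 Mcl1 values and are not independent of each other.

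**Figure D3:**
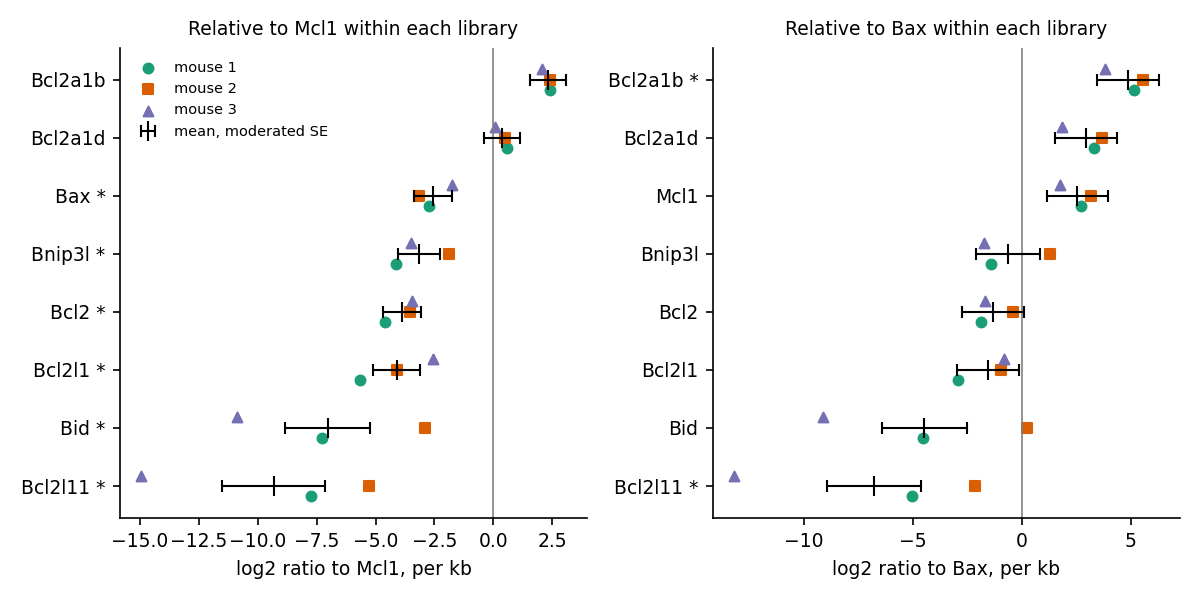
Log2 ratio per kb of each tested member to Mcl1 (left) and to Bax (right) within each library; symbols are the 3 mice, black bars are the mean and the moderated SE from limma, and asterisks mark an adjusted p under 0.05 with all 3 mice. Bcl2a1b lies above both references in every mouse, and Bcl2l11 lies below both.

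Against Bax, 1 of 8 members tested was above and 1 below per kb by limma with the same adjustment, where 1.15% of all genes tested were above and 29.9% below. Bcl2a1b exceeded Bax by a log2 ratio of 4.85 ± 1.42 (SE, adjusted p = 0.0371), and Bcl2l11 was below it at -6.78 ± 2.16 (adjusted p = 0.0466), each in 3 of 3 mice. The other anti-apoptotic members gave ratios of 2.93 ± 1.42 for Bcl2a1d (adjusted p = 0.140), 2.55 ± 1.41 for Mcl1 (adjusted p = 0.187), -1.32 ± 1.41 for Bcl2 (adjusted p = 0.483) and -1.56 ± 1.43 for Bcl2l1 (adjusted p = 0.414), none past the threshold. Bid stood at -4.47 ± 1.94 (adjusted p = 0.108) and Bnip3l at -0.61 ± 1.47 (adjusted p = 0.761), each below Bax in 2 of 3 mice. The ratio of Mcl1 to Bax is the same number in both fits, but passed only in the fit against Mcl1, where its SE was 0.81 instead of 1.41. With any 1 mouse left out, the call on Bcl2a1b was lost (adjusted p = 0.156 to 0.252). The ratio of Bcl2l11 rests on the pseudocount in mouse 3: it was -3.58 without that mouse (adjusted p = 0.262 by limma) and -7.89 with a pseudocount of 0.1 (adjusted p = 0.103 by limma), and the call was lost in both. Also, without mouse 2 Bid passed as well (adjusted p = 0.0269 by limma).

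The 3 highest members per kb varied the least between mice. The SD of log2 level was 0.14 for Bcl2a1d, 0.20 for Bcl2a1b and 0.39 for Mcl1, against a median of 1.12 over the 4499 genes with a mean of 1000 or more. For Bcl2, Bnip3l, Bax and Bcl2l1 the SDs were 0.90, 1.10, 1.10 and 1.86. Bid and Bcl2l11 reached 3.65 and 4.62, above the median of 2.55 over the 11636 genes with a mean of 10 or more. The upper quartile of those genes was 3.84, so Bid lay below it and Bcl2l11 above. By mouse, 6 of the 10 members (Bcl2a1b, Bcl2a1d, Mcl1, Bax, Bcl2l1 and Bcl2) were highest in mouse 3, where 32.1% of genes were highest. Bid, Bcl2l11 and Bnip3l were highest in mouse 2, and Bak1 in mouse 1.

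**Figure D4:**
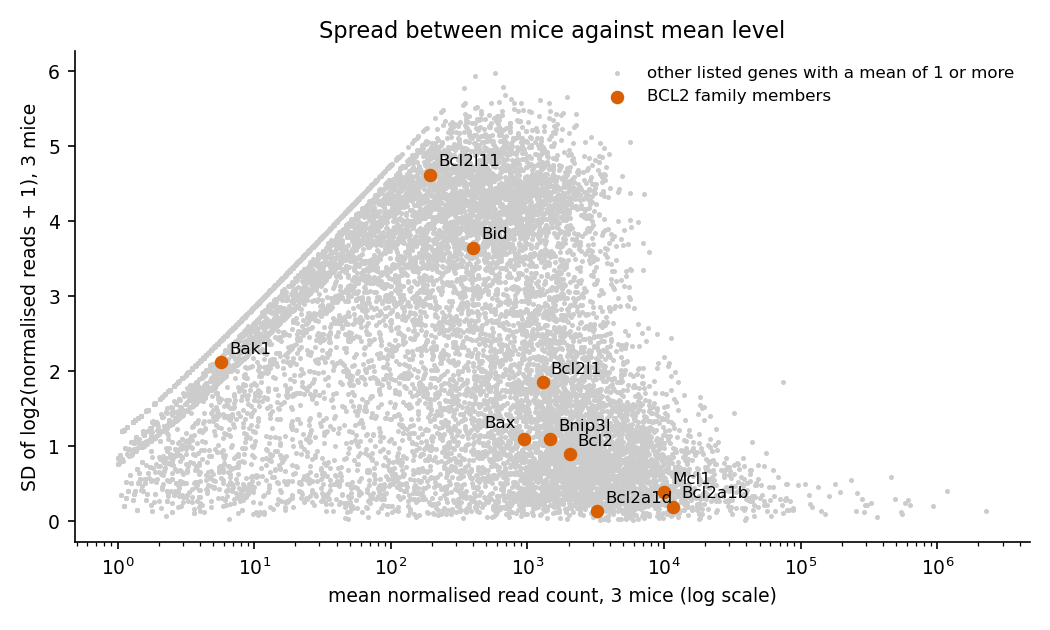
SD of log2(normalised reads + 1) over 3 mice against the mean normalised read count (log axis) for all listed genes with a mean of 1 or more (grey), with the 10 members in orange. Bcl2a1b, Bcl2a1d and Mcl1 sit at the low edge of the spread (0.14 to 0.39), while Bid and Bcl2l11 sit at 3.65 and 4.62.

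Of 22 other BCL2 family symbols, 16 were listed, 8 of them at 10 or more in all 3 mice and 2 at 1000 or more. After Bcl2a1a, the highest per kb was Bnip2, which encodes a BCL2-interacting protein, at 7819, 3350 and 5419. Becn1, the autophagy initiator that binds BCL2, stood at 11854, 149 and 3751, and so was very uneven between mice. Bnip3, the closest relative of Bnip3l, stood at 205, 1386 and 2192. Bcl2l14 was at 0 reads in all 3 libraries.

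Genes that work with the family at the mitochondria or in caspase activation were present at unequal levels. Of 16 genes for mitochondrial channels and remodelling, 15 were at 10 or more and 9 at 1000 or more throughout, that is in each mouse. Vdac2, the outer membrane channel that binds Bak1 and Bax, was steady at 10563, 9800 and 11311, and the ADP/ATP carrier Slc25a5 was at 6790, 11250 and 18222. Fis1, a fission factor, stood at 1417, 2653 and 7676, and the second carrier Slc25a4 at 3576, 4814 and 2155. In the list of apoptosome, caspase and released-factor genes, 8 of 15 were at 10 or more in all 3 mice, and only 1 at 1000 or more. That gene was Casp8, the caspase that cuts Bid and so acts ahead of the mitochondria, at 6333, 2733 and 5392. The next genes of the list per kb had wide spreads: Htra2 at 21.0, 246 and 5858, Parp1 at 7777, 682 and 872, and Diablo, an antagonist of IAP proteins, at 3571, 97.7 and 5940.

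Of 9 listed genes for inhibitor of apoptosis (IAP) proteins and their partner Xaf1, 7 were at 10 or more and 4 at 1000 or more throughout. Xaf1, an XIAP-binding protein, stood at 5778, 7823 and 10440, and Xiap, a direct caspase inhibitor, at 10007.5, 6204 and 6431. Birc2 was steady at 2453, 2564 and 3783, whereas Birc3 was low in mouse 2 (7108, 711 and 6376). Among 11 listed death receptor and adaptor genes, 7 were at 10 or more and 1 at 1000 or more throughout. That gene was Cflar, an inhibitor of caspase-8, at 3936, 3303 and 1169, named after its values were seen. Per kb the TNF receptor Tnfrsf1a led, at 3085, 859 and 3874 normalised reads, followed by Tnfrsf1b at 301, 366 and 3825 and the kinase Ripk1 at 245, 2838 and 3484. The adaptor Traf2 had 6.45, 10.5 and 3762, and the receptor Fas was at 0 reads in all 3 libraries.

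Of 15 listed mitophagy receptor and LC3-family genes, 12 were at 10 or more and 5 at 1000 or more throughout. The highest per kb were Gabarap, an LC3-like protein, at 17577, 13248 and 7137, and the mitophagy receptor Fundc1 at 10827, 11508 and 4364. Gabarapl2 stood at 1835, 3071 and 2988, and the GTPase Rheb at 5835, 7617 and 7506. Fundc1 had a mean of 3782 per kb, against 381 for Bnip3l and 557 for Bnip3.

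Among regulators of BCL2 family transcription, 13 of 17 listed genes were at 10 or more in all 3 mice and 2 at 1000 or more, Hif1a and the NF-kB subunit Rel (at 3271, 1365 and 1768, named after its values were seen). Per kb the stress factor Ddit3 led, at 5867, 859 and 4065, followed by Hif1a, the hypoxia factor known to act on Bnip3 and Bnip3l, at 3290, 3094 and 10515. Myc stood at 701, 3346 and 1165, and Atf4 at 30.6, 610 and 2682. Of 16 listed genes for turnover and phosphorylation of the proteins, 13 were at 10 or more and 3 at 1000 or more throughout. Dynll1, the dynein light chain that binds BIM, stood at 7045, 10076 and 12075. The adaptors Ywhae, at 3944, 3672 and 4373, and Ywhaz, at 1384, 2653 and 1373, came next, and the kinase gene Gsk3a was high in mouse 1 alone (1624, 32.2 and 19.7).

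Of 12 survival receptor genes, 8 were at 10 or more and 6 at 1000 or more throughout. The interferon-gamma receptor Ifngr1 stood at 25351, 20562 and 29863, and Axl, a receptor for apoptotic cell bridging proteins, at 26745, 8511 and 29397. Csf1r, the receptor for the macrophage growth factor CSF1, was at 16267, 7431 and 18142, and Csf2ra at 6035, 3246 and 5916. The median level per kb was 331 over the 10 BCL2 family members, 119 over the 16 other family genes and 548 over the survival receptors, against 69.3 over all listed genes.

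**Figure D5:**
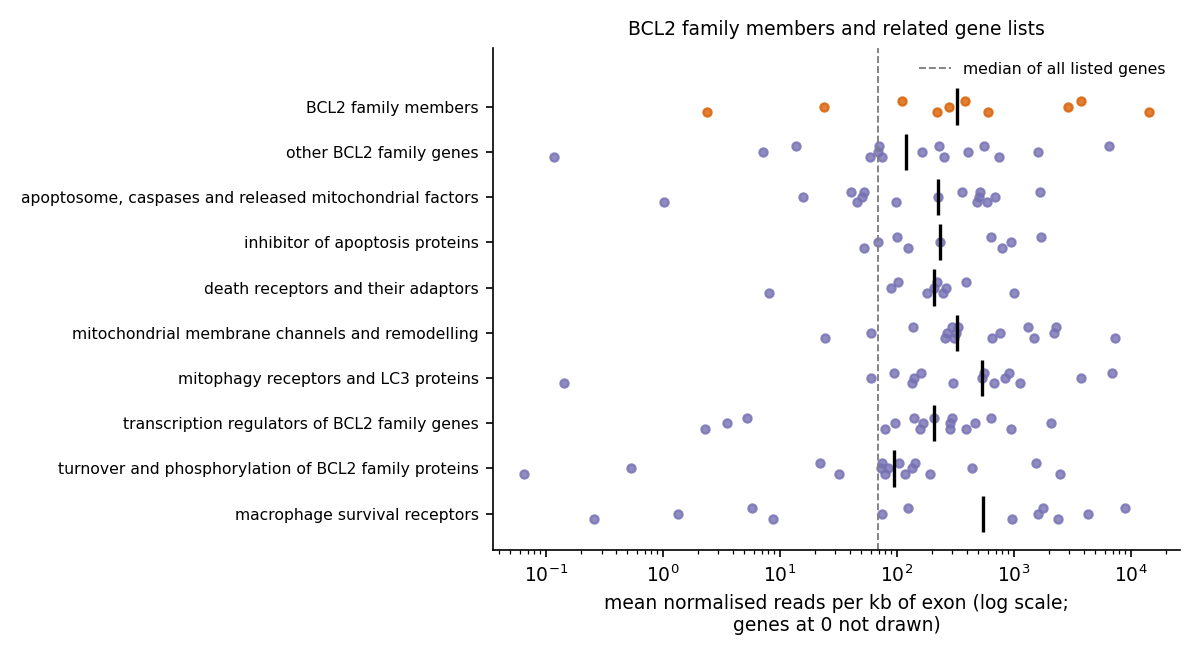
Mean normalised reads per kb (log axis) of each listed gene in the 10 members (orange) and 9 related lists (purple); black ticks are list medians and the dashed line is the median of all listed genes, 69.3. The members run from 2.39 (Bak1) to 14217 (Bcl2a1b).

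The genes whose levels per kb lay closest to 3 members over the 3 libraries were picked by the Euclidean distance of log2 values. For Mcl1 they were Hcfc1r1, at a distance of 0.059 with levels per kb of 2619, 2339 and 3876, and Gm9385, at 0.12. For Bax they were Bmi1, at a distance of 0.17 with 353, 243 and 1176 per kb, and Taok1, at 0.23. For Bcl2l1 they were Arhgap9, at a distance of 0.37 with 45.8, 121 and 539 per kb, and Msantd2, at 0.38. With only 3 libraries, near matches of this kind are a description of level and mouse order alone.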

How the data were processed

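RNA-seq was made from sorted kidney macrophages of 3 mice (1 library each) with a SMART-seq amplification kit, per the labels' protocols. Reads were counted with HTSeq 0.5.4 on mm9 and scaled with DESeq 1.18.0, per the submitters' processing notes. The deposited signal values proved, from the values themselves, to be counts divided by a size factor plus 1; 1 was subtracted, and 100% of values then were whole reads (within 0.05). No source used here gives the read length, the strand setting or the treatment of reads with several matches. Sequencing depth was 50646558 to 56718534 reads; intervals and floors cover counting error only, since amplified reads are not independent molecules.

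Exon lengths, coordinates and coding sequences came from GENCODE gene models on GRCm38, matched by gene ID or symbol (99.6% of genes), whereas the counts rest on mm9 models. For ratios, log2(level + 1) per kb was taken minus that of Mcl1 or Bax in the same library and tested with limma 3.58.1 (R 4.3.3; intercept only) over 11602 genes with a mean of 10 or more, with Benjamini-Hochberg adjustment and a threshold of 0.05. With 3 libraries, the smallest p of an exact sign-flip test is 0.25. On simulated data, at log2 ratios of 0, -2 and -5, 5.0%, 29.5% and 74.5% of 200 genes each were called against Mcl1. Against Bax the shares were 5.5%, 4.5% and 70.0%. The values of each reference were drawn once and shared by all genes. That draw shifted the ratios to Bax, to medians of 0.70, -1.33 and -4.24. How often a 4-fold difference from Bax would be missed can therefore not be read from these shares.

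Named genes were all members, the 4 highest per kb and those at 0 of each list, the highest and the absent markers of cell types (1 list is not reported here), and the 2 genes nearest to Mcl1, Bcl2l1 and Bax. The members and lists were chosen with earlier results of these data known; the comparisons with Bcl2a1a and Bnip3l-ps and the sum of Bcl2a1 copies were added after the values were seen. A motif search of the members' promoters was run and is not reported. Alternatives were the pseudocount, the filter, the length, the prior of the spread, scaling to equal totals, keeping the added 1 and leaving out each mouse.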

Additional observations from a re-analysis of the deposited data

How the results depend on the processing

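Of the values that answer a comparison, 59 stayed close to the reported one and 22 moved. The number of members below Mcl1 was 6 with all mice and 0 with any 1 mouse left out (range 0 to 0); it was 5 with a pseudocount of 0.1, no length division or the longest transcript, 7 with no filter and 4 of 6 tested with a minimum of 10 in every library. The number above Mcl1 went from 0 to 1, Bcl2a1b, with no filter, with a minimum of 10 in every library and with a trended prior spread (1 in each). Below Bax, the count of 1, Bcl2l11, became 0 with a pseudocount of 0.1, no length division or a trended prior. It was 2 with no filter, and 0 to 2 without 1 mouse. With a minimum of 10 in every library it was 0, but Bcl2l11 was not among the 6 members tested there. Above Bax, the count of 1 became 0 with a pseudocount of 0.1 or no length division, 2 with a minimum of 10 in every library, 3 with a trended prior, and 0 without any 1 mouse (range 0 to 0). The share of all genes called under each alternative is not given here. Changes in these counts can therefore not be told apart from a change in the call rate of all genes. Without mouse 1, 5 members instead of 3 were at 1000 or more in every remaining mouse. Without division by exon length, the Bcl2l1 to Bcl2 ratio became -1.23, and 3 ratios changed sign: Bcl2a1d to Mcl1 (-1.61), Bcl2 to Bax (1.22) and Bnip3l to Bax (0.68). The call on Bax against Mcl1 was also lost with a pseudocount of 0.1 (adjusted p = 0.0540 by limma) or the longest transcript as length (0.0866), and that on Bcl2 without length division (0.0556). Scaling libraries to equal totals moved all genes by -0.19, 0.20 and 0.02 (log2) in mice 1, 2 and 3; ratios were not refitted under it. No paired analysis was possible because there is a single group. Bak1 in mice 2 and 3 and Bcl2l11 in mouse 3 were under the floor of 3 reads, where no level can be given; why they were low there was not tested.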
